A study of Mus musculus with 8 samples.

Results

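Interferon-stimulated genes are the genes that cells switch on after an interferon binds its receptor, and 32 of them, listed by symbol, were followed here in cultured mouse bone marrow mesenchymal stem cells. The table of all genes holds 30 of the 32 listed genes among its 21935 genes. Mx1 and Mx2 were not analysed here. Of the 30, 29 had a mean count of at least 10 over the 4 libraries, as did 12161 genes of the table. Trim25, a ubiquitin ligase that activates the RNA sensor RIG-I, is listed at 0 reads in all 4 libraries. A floor of 3 reads would correspond to at most 0.0357 FPKM. Whether the 0 comes from the cells or from how reads were counted was not tested.

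The cells were a wild-type bone marrow stem cell line bought from a supplier and kept in osteogenic culture. Per the labels, they met medium in which scaffolds of polycaprolactone (PCL), a polyester that degrades slowly in the body, had been left to soak. The labels name 4 scaffolds, which are PCL carrying SS31, PCL carrying E7, PCL carrying both peptides and PCL alone. SS31 is a peptide that enters mitochondria, and E7 is a peptide that binds bone marrow stem cells. There are 8 labelled samples, 1 for each scaffold at day 3 and day 7, and the protocol mentions n = 3 RNA samples. The table gives 4 libraries, whose names are PCL-R, PCL-B, PCL-R-B and PCL. No label says what R or B stands for, and no library name carries a day. The libraries are therefore compared by name, and peptide and day cannot be told apart in any difference between them. Each name has 1 library, so there is no replicate error, no test and no p-value anywhere below. Every interval is a 95% exact binomial interval on a ratio of 2 read counts and covers counting error only. The spread between cultures is unknown.

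Interferons of type I and type III bind surface receptors, and the kinases Jak1 and Tyk2 on those receptors phosphorylate transcription factors, among them Stat2. Stat2 enters a complex with Irf9 that binds a DNA element, the interferon-stimulated response element, in the promoters of target genes. The products sense viral RNA, degrade it, block its translation or hold virus particles at membranes. Interferon gamma has its own receptor and adds another set of genes, among them the guanylate-binding proteins. In marrow stromal cells interferon signalling is known to affect antigen presentation and bone formation.

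The core of the response element can be written as GAAA, any 2 bases, GAAA. It was searched on both strands, overlapping matches included, in the RefSeq promoter windows of build GRCm38.p6, which run from 250 bases before a gene's start to 50 bases after it. Of the listed genes, 23 had a window and 13 of these held a match (56.5%), against 3.99% of 27025 genes with a window. The promoters below were chosen because they belong to the most abundant members with matches before the start, and to Rsad2 and Stat2, whose values stand out or open the account of the regulators. Capitals mark every match, and each sequence is written 5′ to 3′ on the strand of its gene. A TTTC form is the same motif on the other strand.
Isg15: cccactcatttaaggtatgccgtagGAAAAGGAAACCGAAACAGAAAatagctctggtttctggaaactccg
Ifit1: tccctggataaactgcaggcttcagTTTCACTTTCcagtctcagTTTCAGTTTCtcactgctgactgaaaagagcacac
Ifit3: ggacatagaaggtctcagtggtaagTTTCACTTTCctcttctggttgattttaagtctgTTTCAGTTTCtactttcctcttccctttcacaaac
Bst2: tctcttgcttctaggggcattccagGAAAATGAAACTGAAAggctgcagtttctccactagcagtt
Rsad2: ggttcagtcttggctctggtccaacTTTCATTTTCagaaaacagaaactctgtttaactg
Stat2: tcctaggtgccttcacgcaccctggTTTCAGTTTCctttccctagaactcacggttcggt

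The Isg15 stretch lies at chr4:156200850-156200921 on the minus strand and holds 3 overlapping matches, the first beginning 78 bases before the start. The Ifit1 stretch (chr19:34640760-34640838, plus strand) and the Ifit3 stretch (chr19:34583348-34583441, plus strand) hold 2 separate matches each. Bst2 has 2 overlapping matches (chr8:71537562-71537627, minus strand). Rsad2 (chr12:26456538-26456597, minus strand) and Stat2 (chr10:128270251-128270310, plus strand) have 1 match each in the stretches shown. Members with 2 or more matches numbered 6. No match in this window was found for 10 members, which are Ifi44, Oasl1, Oasl2, Ifitm1, Irf7, Xaf1, Trim25, Ifi35, Irf9 and Ifit2. A match is a run of letters and does not show binding.

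Across the 29 members, the libraries ran largely in a shared order, read here from counts after TMM scaling of the libraries (a trimmed mean of the ratios between them). PCL-B was the highest library for 24 members (82.8%), while it was the highest for 17.7% of all genes tested. PCL was the lowest library for 25 members (86.2%), against 31.6% of all genes. The full order PCL-B, PCL-R-B, PCL-R, PCL, from high to low, was found in 20 members (69.0%) and in 4.33% of all genes. The other 9 members followed 3 more of the 24 possible orders. On total counts or on FPKM, PCL-R lay below PCL for Stat2 and Parp9 as well, which left 23 members lowest in PCL (79.3%) and 18 in the full order (62.1%), against 29.6% and 4.76% of all genes. Summed over the listed genes, the deposited FPKM (reads scaled to gene length and to the library's total) came to 2538 in PCL-R, 3261 in PCL-B and 2773 in PCL-R-B, against 1651 in PCL. In bulk RNA, fewer cells of a type and less RNA per cell cannot be told apart.

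**Figure D1:**
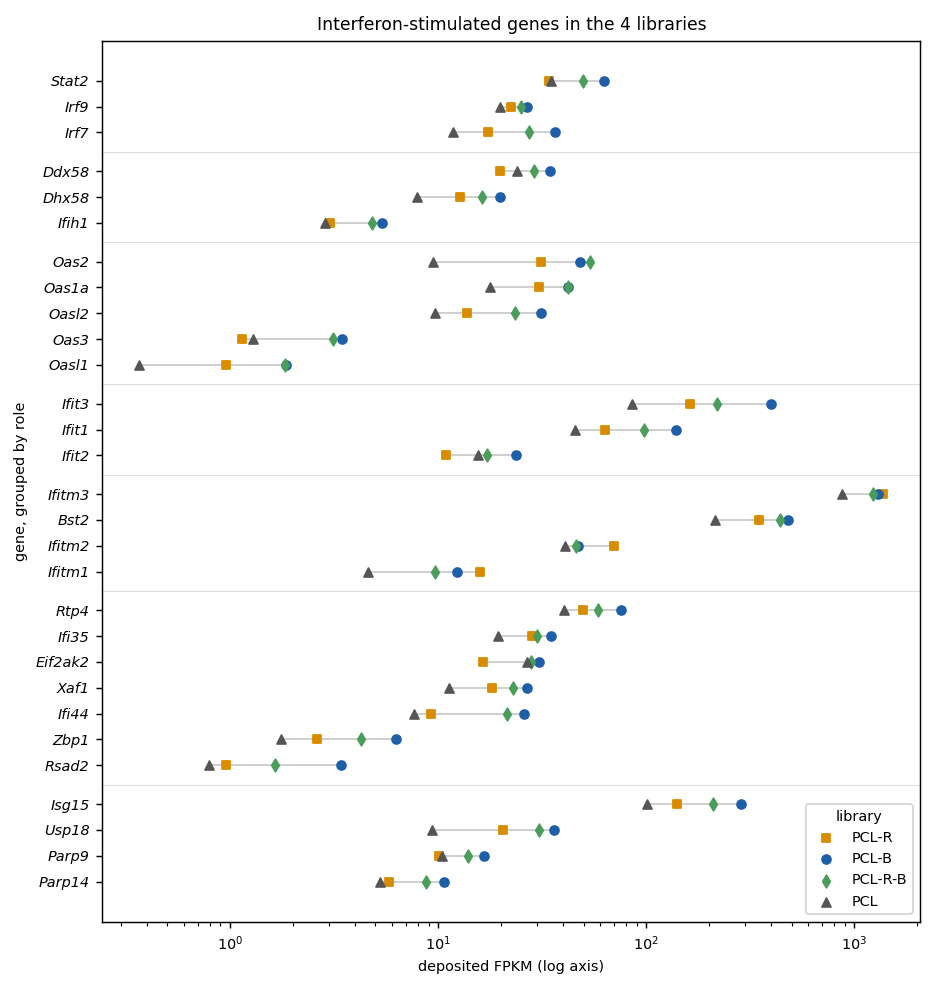
Deposited FPKM (log axis) of the 29 members in each of the 4 libraries, grouped by role, with 1 point per library and a grey line from the lowest to the highest. PCL (triangles) is the lowest point for 23 members and PCL-B (circles) the highest for 24.

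Ratios between libraries were taken on the same TMM-scaled counts, and a gene was called higher at a ratio of at least 1.5 and lower at the inverse of that. Of the 29 members, 14 were called higher and 1 lower in PCL-R over PCL, where 11.9% of all genes were called higher and 10.0% lower. In PCL-B over PCL, 24 members were called higher and 0 lower, against 9.0% and 4.99% of all genes. In PCL-R-B over PCL the members gave 20 higher and 0 lower, against 9.19% and 5.16% of all genes. The median member ratio was 1.47 in PCL-R over PCL, 2.39 in PCL-B over PCL and 2.06 in PCL-R-B over PCL, and the median over all genes lay between 0.999 and 1.00. With total counts in place of TMM scaling, Irf7, Zbp1 and Ifi35 were no longer called higher in PCL-R over PCL, which left 11 members, against 10.3% of all genes called higher under that scaling. With a call at a ratio of 2, 4 members were higher in PCL-R over PCL and 0 lower, against 4.47% and 3.30% of all genes. These 3 comparisons share the single PCL library.

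**Figure D2:**
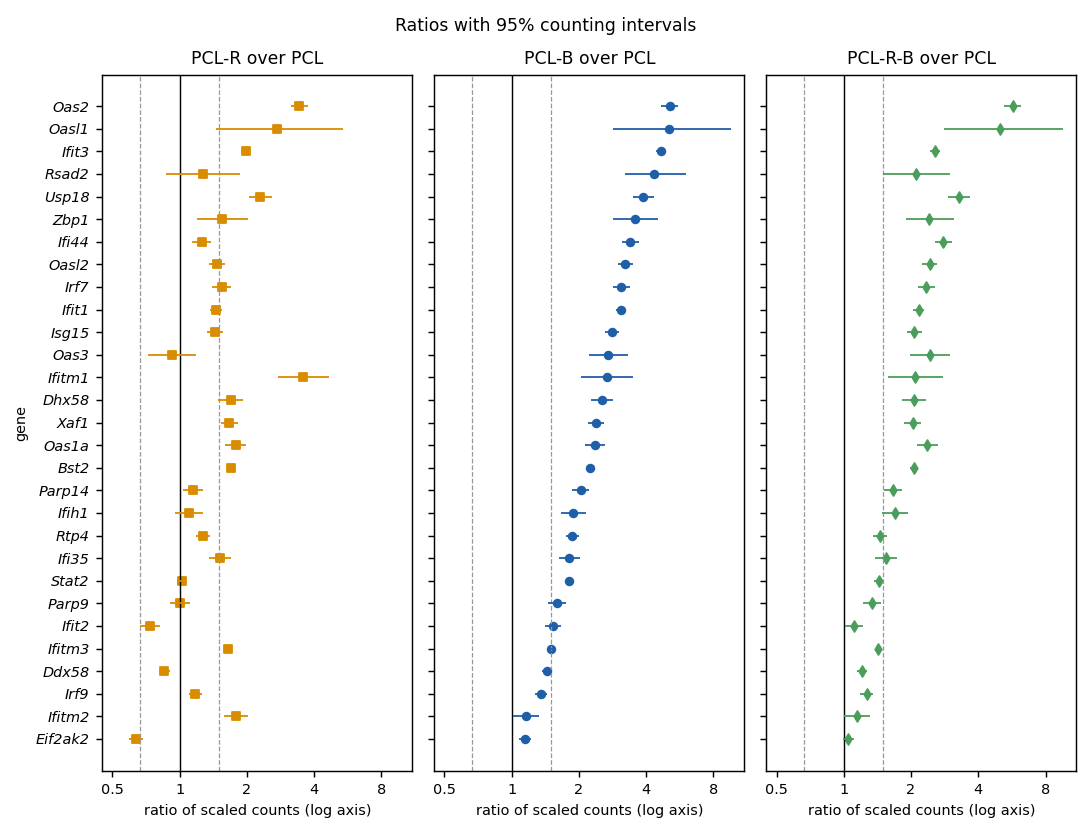
Ratio of scaled counts (log axis) of each member in PCL-R, PCL-R-B and PCL-B over PCL, sorted by the PCL-B ratio, with 95% counting intervals as bars. Dashed lines stand at 1.5 and its inverse. In PCL-B all 29 points lie above 1, and in PCL-R the points reach from 0.637 for Eif2ak2 to 3.57 for Ifitm1.

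The transcription factors that carry the signal into the nucleus differed in how far apart the libraries lay. Irf7, the factor that amplifies interferon production, had 17.4 FPKM in PCL-R, 36.3 in PCL-B and 27.5 in PCL-R-B, against 11.7 in PCL (chr7:141262706-141266481, minus strand, mm10). It was called higher in each of the 3 libraries over PCL, with a ratio of 3.10 in PCL-B (interval 2.84 to 3.38). Stat2, a subunit of the complex, had 34.1 FPKM in PCL-R, 62.8 in PCL-B and 49.7 in PCL-R-B, against 34.7 in PCL. PCL-R and PCL were nearly level for Stat2 (ratio 1.02, interval 0.970 to 1.07, and below 1 on total counts or FPKM), and PCL-B stood 1.81 times above PCL. Irf9, which gives the complex its DNA binding, had 22.4 FPKM in PCL-R, 26.8 in PCL-B and 25.1 in PCL-R-B, against 19.8 in PCL. No comparison called Irf9, whose highest ratio was 1.36.

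The cytosolic RNA sensors were measured as 3 genes. Ddx58, which encodes RIG-I, had 19.7 FPKM in PCL-R, 34.5 in PCL-B and 29.0 in PCL-R-B, against 24 in PCL. Ifih1, which encodes MDA5, had 3.02 FPKM in PCL-R, 5.35 in PCL-B and 4.82 in PCL-R-B, against 2.85 in PCL. Dhx58, which encodes the regulator LGP2, had 12.8 FPKM in PCL-R, 19.9 in PCL-B and 16.2 in PCL-R-B, against 7.88 in PCL. All 3 were highest in PCL-B. Dhx58 was called higher in all 3 libraries over PCL (ratio 2.53 in PCL-B, interval 2.25 to 2.85), and Ifih1 was called in PCL-B and PCL-R-B. Ddx58 was not called over PCL and was lowest in PCL-R, at a ratio of 0.854 to PCL (interval 0.807 to 0.904).

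The oligoadenylate synthetases, which on binding double-stranded RNA make the messenger that activates RNase L, included the largest member ratios in PCL-B and in PCL-R-B over PCL. Oas2 (chr5:120730333-120749853, minus strand) had 31.2 FPKM in PCL-R, 48.1 in PCL-B and 54.0 in PCL-R-B, against 9.48 in PCL. Its counts were 2338 in PCL-R, 3815 in PCL-B and 3824 in PCL-R-B, against 617 in PCL. The ratio to PCL was 3.43 in PCL-R (interval 3.13 to 3.75), 5.09 in PCL-B (4.67 to 5.54) and 5.70 in PCL-R-B (5.24 to 6.22), the highest value of any member in each of the last 2 comparisons. Oas1a, another synthetase, had 30.5 FPKM in PCL-R, 41.9 in PCL-B and 42.0 in PCL-R-B, against 17.8 in PCL. PCL-R-B and PCL-B were level for Oas1a, at a ratio of 1.00 (interval 0.929 to 1.08), which fell just below 1 without a filter and at a mean count of at least 50. Oas1a shares 57.6% of its 50-base stretches with Oas1g and Oas1b, so its counts may hold reads of those genes.

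Oas3, the synthetase with the longest chain in this family, lies between Oas2 and Oas1a on chromosome 5. It had 1.14 FPKM in PCL-R, 3.46 in PCL-B and 3.13 in PCL-R-B, against 1.29 in PCL. The libraries formed 2 pairs for Oas3, with PCL-B and PCL-R-B high and PCL-R and PCL low. Its ratio in PCL-R-B over PCL-R was 2.63 (interval 2.15 to 3.23), the highest of any member in that comparison. Oasl1, an OAS-like protein that in the mouse represses translation of Irf7, had 42 reads in PCL-R, 86 in PCL-B and 76 in PCL-R-B, against 14 in PCL. At these low counts the ratio in PCL-B over PCL of 5.05 has an interval from 2.85 to 9.63. Oasl2, an OAS-like gene, had 13.7 FPKM in PCL-R, 31.2 in PCL-B and 23.5 in PCL-R-B, against 9.69 in PCL. All 5 genes of this group were called higher in PCL-B and in PCL-R-B over PCL, and 3 of 5 in PCL-R over PCL. The shares of all genes called higher, in the same order, were 9.0%, 9.19% and 11.9%.

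The IFIT genes, a cluster on chromosome 19 whose products bind viral RNA and block its translation, were highest in PCL-B. Ifit3 (chr19:34583531-34588731, plus strand) had 4767 reads in PCL-R, 12367 in PCL-B and 6091 in PCL-R-B, against 2187 in PCL. Its FPKM was 162.5 in PCL-R, 397.8 in PCL-B and 219.2 in PCL-R-B, against 85.7 in PCL. PCL-B stood well apart for this gene, at 4.65 times PCL (interval 4.44 to 4.87), and PCL-R-B lay at 0.551 of PCL-B (interval 0.534 to 0.568). Ifit3 shares 51.2% of its 50-base stretches with Ifit3b. Ifit1 had 63.5 FPKM in PCL-R, 139.5 in PCL-B and 98.1 in PCL-R-B, against 45.4 in PCL. Its ratio in PCL-B over PCL was 3.08 (interval 2.92 to 3.25). Ifit1 shares 7.1% of its 50-base stretches with Ifit1bl2 and Ifit1bl1. Ifit2 had 10.95 FPKM in PCL-R, 23.6 in PCL-B and 17.2 in PCL-R-B, against 15.5 in PCL. Ifit2 differs from its neighbours in that PCL-R, not PCL, was its lowest library, at a ratio of 0.735 (interval 0.666 to 0.812), which is short of a call.

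Among the membrane proteins, Ifitm3 and Bst2 had the highest mean FPKM of the members, and the 3 Ifitm genes followed another order. Ifitm3, which blocks virus entry at endosomes, had 1377 FPKM in PCL-R, 1300 in PCL-B and 1236 in PCL-R-B, against 871.4 in PCL. It was called higher in PCL-R over PCL, at 1.64, and fell just short in PCL-B, at 1.495. Ifitm2 had 69.7 FPKM in PCL-R, 46.9 in PCL-B and 46.2 in PCL-R-B, against 40.5 in PCL. Ifitm1 had 15.9 FPKM in PCL-R, 12.3 in PCL-B and 9.64 in PCL-R-B, against 4.63 in PCL. PCL-R was the highest library for these 3 genes, which lie close together on chromosome 7 and all restrict virus entry. The Ifitm1 ratio in PCL-R over PCL was 3.57 (interval 2.76 to 4.67). Ifitm2 shares 48.5% of its 50-base stretches with other genes, Ifitm3 10.0% and Ifitm1 5.0%. The exons of Ifitm2 also overlap those of Gm45717 on the same strand, over 268 of its 655 bases. Bst2 encodes tetherin, which holds budding virus at the cell surface, and had 349.5 FPKM in PCL-R, 478.0 in PCL-B and 440.2 in PCL-R-B, against 213.8 in PCL. Unlike the 3 Ifitm genes, Bst2 was highest in PCL-B. It was called higher in all 3 libraries over PCL.

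Of the 7 other effectors, 6 were called higher in PCL-B over PCL, against 9.0% of all genes. Rsad2, which encodes viperin, had 70 reads in PCL-R, 264 in PCL-B and 114 in PCL-R-B, against 50 in PCL. Its ratio in PCL-B over PCL was 4.34 (interval 3.2 to 6.0), and PCL-R-B lay at 0.483 of PCL-B (interval 0.384 to 0.604). Zbp1, a sensor of Z-form nucleic acid that triggers cell death, had 2.63 FPKM in PCL-R, 6.28 in PCL-B and 4.25 in PCL-R-B, against 1.76 in PCL. Both genes are low in level, and both have PCL-B well above the other libraries. Ifi44, an interferon-induced protein, had 9.26 FPKM in PCL-R, 26.0 in PCL-B and 21.4 in PCL-R-B, against 7.67 in PCL. Its ratio was 3.40 in PCL-B over PCL (interval 3.12 to 3.70) and 1.26 in PCL-R over PCL (1.14 to 1.39).

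Xaf1, which antagonises an inhibitor of apoptosis, had 18.1 FPKM in PCL-R, 26.9 in PCL-B and 22.9 in PCL-R-B, against 11.3 in PCL. Ifi35, which binds the Nmi protein, had 28.2 FPKM in PCL-R, 35.0 in PCL-B and 29.8 in PCL-R-B, against 19.4 in PCL. These genes were called higher in each library over PCL, Ifi35 narrowly so in PCL-R at 1.51. The exons of Ifi35 overlap those of Gm11626 on the opposite strand, over 290 of its 1727 bases. Rtp4, a transmembrane chaperone of receptors, had 49.7 FPKM in PCL-R, 75.5 in PCL-B and 58.7 in PCL-R-B, against 40.5 in PCL. It was called in PCL-B over PCL, at 1.87. Rtp4 shares 11.6% of its 50-base stretches with Gm45338, whose exons overlap its own over 296 bases on the same strand. Eif2ak2, which encodes the kinase PKR that stops translation, had 16.4 FPKM in PCL-R, 30.5 in PCL-B and 27.9 in PCL-R-B, against 26.7 in PCL. Eif2ak2 was the member called lower in PCL-R over PCL (ratio 0.637, interval 0.594 to 0.682), and PCL-B and PCL-R-B lay near PCL.

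The 4 tested members of the ISG15 pathway and of ADP-ribosylation were called higher in PCL-B over PCL, against 9.0% of all genes. Trim25, listed with them, was not tested. Isg15, a ubiquitin-like modifier, had 140.0 FPKM in PCL-R, 284.1 in PCL-B and 209.2 in PCL-R-B, against 101.2 in PCL. Usp18, the protease that removes ISG15 and damps receptor signalling, had 20.6 FPKM in PCL-R, 36.2 in PCL-B and 30.6 in PCL-R-B, against 9.34 in PCL. The Usp18 ratio to PCL was 2.30 in PCL-R (interval 2.04 to 2.59), 3.89 in PCL-B (3.48 to 4.35) and 3.28 in PCL-R-B (2.93 to 3.69). Parp9, a partner of the ubiquitin ligase Dtx3l, had 10.1 FPKM in PCL-R, 16.6 in PCL-B and 13.9 in PCL-R-B, against 10.4 in PCL. Parp14, an ADP-ribosyltransferase, had 5.79 FPKM in PCL-R, 10.7 in PCL-B and 8.74 in PCL-R-B, against 5.26 in PCL. The neighbours Parp9 and Parp14 on chromosome 16 had PCL-R nearly level with PCL, at ratios of 1.01 and 1.15, and Parp9 lay below 1 on total counts, on FPKM and without a filter. The exons of Parp9 overlap those of Dtx3l on the opposite strand over 458 bases, and no source used here states whether strand was used in counting.

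The same libraries can also be read by R and B in the names. The directions below restate the library order given above and add no separate evidence. PCL-R over PCL and PCL-R-B over PCL-B both set a name with R over the same name without it, and they share no library. The members were mostly above 1 in the first and below 1 in the second, which held for 23 of 29 members (79.3%) and 26.0% of all genes. On total counts or FPKM it held for 21 members (72.4%) and 23.5% of all genes. In PCL-R-B over PCL-B, 0 members were called higher and 2 lower, Ifit3 and Rsad2, against 3.16% and 3.28% of all genes. The median member ratio there was 0.838, with 2 members above 1. PCL-B over PCL and PCL-R-B over PCL-R do the same for B. In both, 26 of 29 members (89.7%) were above 1, against 23.9% of all genes. In PCL-R-B over PCL-R, 11 members were called higher and 2 lower, Ifitm1 and Ifitm2, against 6.82% and 4.48% of all genes. With a call at a ratio of 2 these were 2 higher and 0 lower, against 2.09% and 1.09% of all genes. With total counts in place of TMM scaling, 13 members were called higher and 2 lower, against 8.6% and 3.53% of all genes. The Ifitm1 ratio in PCL-R-B over PCL-R was 0.586 (interval 0.481 to 0.710).

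**Figure D3:**
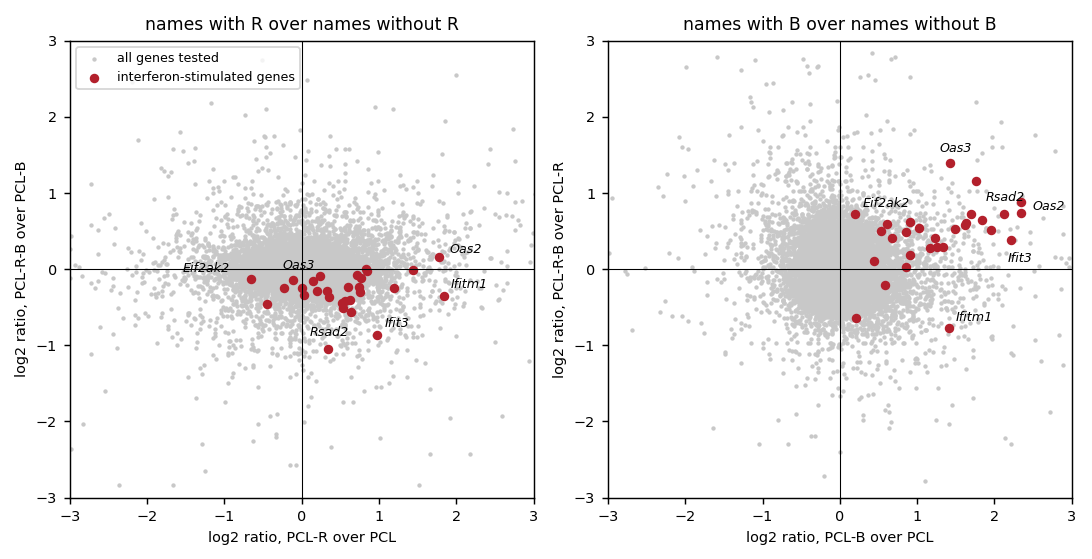
Log2 ratios of the 29 members (red) and of all genes tested (grey) for names with R over names without R (left) and names with B over names without B (right). Axes end at 3 on either side, which leaves out 42 grey points on the left and 24 on the right. On the left 23 members lie right of 0 and below 0, and on the right 26 members lie above 0 on both axes.

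Other genes of the interferon pathway were described from fixed lists. Transcripts of the interferons themselves were at or near 0. The 20 genes of type I and type III interferon summed to 6 reads in PCL-R, 15 in PCL-B and 4 in PCL-R-B, against 2 in PCL. Ifnb1, interferon beta, had 2 reads in PCL-R, 6 in PCL-B and 0 in PCL-R-B, against 0 in PCL. The exact Poisson interval on the 6 reads runs from 2.2 to 13.1, and that on 0 reads ends at 3.69. Ifne, interferon epsilon, had 3 reads in PCL-R, 7 in PCL-B and 0 in PCL-R-B, against 1 in PCL. Ifng, interferon gamma, had 0 reads in all 4 libraries. All 5 receptor genes tested lay within the call limits in every comparison. Ifnar1, a chain of the type I receptor, had 18.4 FPKM in PCL-R, 21.1 in PCL-B and 20.04 in PCL-R-B, against 18.8 in PCL. Ifngr1, a chain of the interferon gamma receptor, had 42.8 FPKM in PCL-R, 43.2 in PCL-B and 38.9 in PCL-R-B, against 36.2 in PCL.

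The lists of signal carriers, sensing adaptors and negative regulators had median ratios in PCL-B over PCL of 1.33, 1.03 and 1.15. Of 9 tested genes for Jak kinases, Stat and Irf factors, 2 were called higher in PCL-R over PCL, 2 in PCL-B over PCL and 0 in PCL-R-B over PCL, and 0 were called lower. The higher shares of 22.2%, 22.2% and 0 stand beside 11.9%, 9.0% and 9.19% of all genes in the same order of libraries. Stat3, which mainly serves interleukin signals, and the kinase Jak1 were the most abundant of that list, with ratios in PCL-B over PCL of 1.11 and 0.964. Of 11 tested adaptors and kinases of nucleic acid sensing, 1 was called higher and 2 lower in PCL-R over PCL, 1 higher and 0 lower in PCL-B over PCL, and 0 in either direction in PCL-R-B over PCL. The higher share of these genes was 9.1% in both PCL-R and PCL-B, beside 11.9% and 9.0% of all genes, and the lower share in PCL-R was 18.2%, beside 10.0%. Tbk1, the kinase that activates Irf3, had a ratio of 0.887 in PCL-B over PCL, and the adaptor Ticam1 one of 1.25. Of 17 tested genes listed as negative regulators, 2 were called higher and 1 lower in PCL-R over PCL. The numbers were 4 and 1 in PCL-B, and 3 and 0 in PCL-R-B over PCL. The higher shares of that list, 11.8%, 23.5% and 17.6%, stand beside 11.9%, 9.0% and 9.19% of all genes. Its lower shares, 5.9%, 5.9% and 0, stand beside 10.0%, 4.99% and 5.16% of all genes. Isg20, listed there but itself an interferon-induced RNA exonuclease, stood 1.80 times above PCL in PCL-R-B (interval 1.43 to 2.27). It was among the genes of that list called higher in PCL-R, in PCL-B and in PCL-R-B over PCL. Ptpn6, a phosphatase, had 35 reads in PCL-R-B, against 16 in PCL (ratio 2.01, interval 1.09 to 3.90). Socs3, a feedback inhibitor of cytokine receptors, stood at 1.53 in PCL-R over PCL, and the phosphatase Ptpn11 stayed between 0.883 and 1.03 over PCL.

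Of a further list of 47 interferon-stimulated genes outside the 32, 45 were tested, all but Epsti1 and Slfn5. In PCL-R over PCL 10 (22.2%) were called higher and 3 (6.7%) lower, against 11.9% and 10.0% of all genes. In PCL-B over PCL 31 (68.9%) were called higher and 0 lower, against 9.0% and 4.99% of all genes. In PCL-R-B over PCL 20 (44.4%) were called higher and 0 lower, against 9.19% and 5.16% of all genes. Ifi27l2a, an interferon-induced membrane protein, had 303.8 FPKM in PCL-R, 276.5 in PCL-B and 456.4 in PCL-R-B, against 74.5 in PCL. It was highest in PCL-R-B, at 6.14 times PCL (interval 5.59 to 6.76). Oas1g, the close copy of Oas1a, had a ratio of 5.28 in PCL-R-B over PCL (interval 4.05 to 6.98). Lgals3bp, a secreted galectin-binding glycoprotein and the most abundant gene of that list, had 325.4 FPKM in PCL-R, 385.3 in PCL-B and 333.7 in PCL-R-B, against 223.7 in PCL.

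Genes that interferon gamma is best known for and genes of antigen presentation gave different orders of the libraries. All 14 listed GTPases of the guanylate-binding and immunity-related families were called higher in PCL-B over PCL, against 9.0% of all genes. In PCL-R-B over PCL 4 (28.6%) were called higher, against 9.19% of all genes, and in PCL-R over PCL 0 were called, against 11.9% higher and 10.0% lower. Their median ratio was 2.25 in PCL-B over PCL and 0.980 in PCL-R over PCL. In PCL-R-B over PCL-B, 10 of the 14 (71.4%) were called lower, against 3.28% of all genes. The spans of Igtp and Irgm2 overlap on chromosome 11, and those of Gbp4 and Gbp9 on chromosome 5. Sequence shared among these 14 genes was not checked, so their counts may not be separate. Igtp had 28.0 FPKM in PCL-R, 52.4 in PCL-B and 30.4 in PCL-R-B, against 22.4 in PCL. Iigp1 had 20.8 FPKM in PCL-R, 54.7 in PCL-B and 33.3 in PCL-R-B, against 25.8 in PCL. Both are immunity-related GTPases that act on vacuoles of intracellular parasites, and both were highest in PCL-B. Gbp3 and Gbp5, guanylate-binding proteins, had ratios of 1.99 and 1.78 in PCL-R-B over PCL.

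Of 14 genes of antigen processing and MHC class I, 10 (71.4%) were called higher in PCL-R over PCL, 10 (71.4%) in PCL-B over PCL and 7 in PCL-R-B over PCL, against 11.9%, 9.0% and 9.19% of all genes. B2m, the light chain of class I molecules, had 2491 FPKM in PCL-R, 2456 in PCL-B and 2302 in PCL-R-B, against 1614 in PCL. H2-K1, a class I heavy chain, had 31.3 FPKM in PCL-R, 41.3 in PCL-B and 36.0 in PCL-R-B, against 16.1 in PCL. H2-T23, a non-classical class I gene, had ratios of 2.28 in PCL-R, 2.55 in PCL-B and 2.34 in PCL-R-B over PCL. For these 3 genes PCL stood below the other libraries, while Erap1, a peptide-trimming enzyme of the list, had a ratio of 0.863 in PCL-R over PCL (interval 0.760 to 0.980). Of 5 interferon-inducible chemokine genes, 1 was called higher in PCL-R, 3 in PCL-B and 2 in PCL-R-B over PCL. Among all genes, 11.9%, 9.0% and 9.19% were called higher in the same order of libraries. Ccl5, which attracts T cells, had 51 reads in PCL-R, 112 in PCL-B and 129 in PCL-R-B, against 41 in PCL. Cxcl9, which interferon gamma induces, had 7 reads in PCL-R, 36 in PCL-B and 6 in PCL-R-B, against 2 in PCL, and its ratio in PCL-B over PCL has an interval from 3.81 to 126.9. Ccl2 and Ccl7, which attract monocytes, were the most abundant, with ratios in PCL-B over PCL of 0.792 and 0.985. Cxcl10, named to complete the list, had 94 reads in PCL-R, 249 in PCL-B and 119 in PCL-R-B, against 83 in PCL. Its ratio in PCL-B over PCL was 2.47 (interval 1.92 to 3.20).

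**Figure D4:**
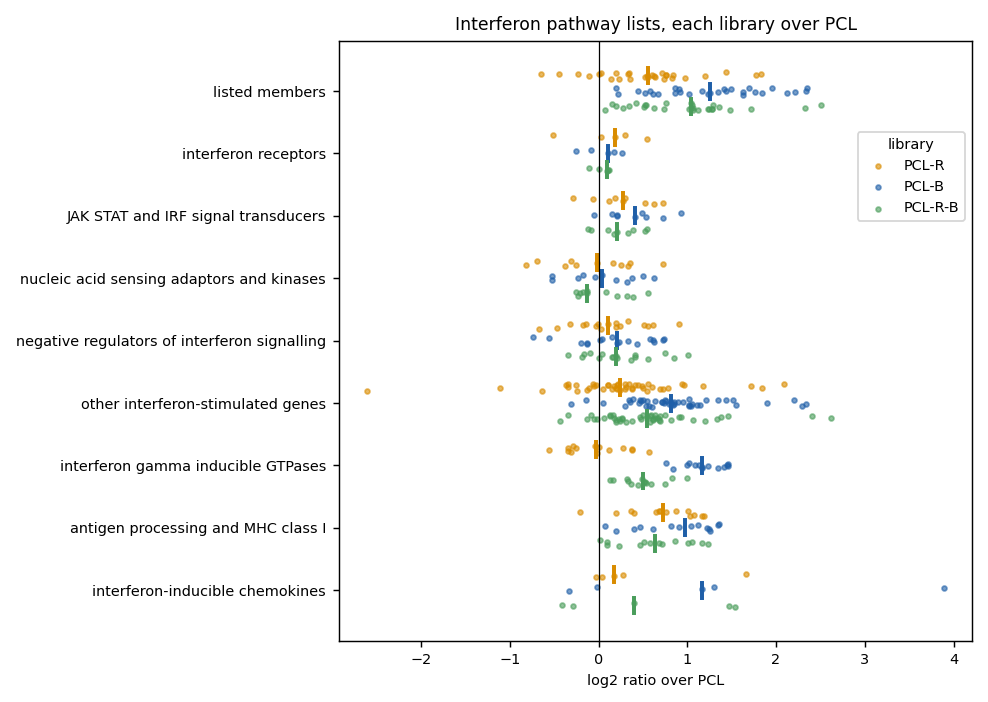
Log2 ratio over PCL of each gene tested (points) and the median of each list (vertical bars) for the 29 members and 8 pathway lists in PCL-R, PCL-R-B and PCL-B. For the interferon gamma inducible GTPases the PCL-B points all lie above 0 with a median of 1.17, and the PCL-R points lie on both sides of 0 with a median of -0.03.

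Counted reads came to 16811326 in PCL-R, 17816789 in PCL-B and 15922734 in PCL-R-B, against 14619380 in PCL. Mitochondrially encoded genes took 3.14% of reads in PCL-R, 2.78% in PCL-B and 2.46% in PCL-R-B, against 3.89% in PCL. Of 17 marrow stromal and osteoblast markers, 13 were tested. Cxcl12, Col1a1 and Ly6a were abundant, while Lepr, a marker of marrow stroma, had 8 to 25 reads. The untested 4 were Nt5e, which encodes CD73, with 1 to 6 reads, and the osteoblast markers Bglap, Ibsp and Sp7, with at most 8 reads in any library. The stromal list summed to 3236 FPKM in PCL-R, 3400 in PCL-B and 3270 in PCL-R-B, against 3045 in PCL. Ly6a, which encodes Sca-1 and is itself inducible by interferon, had 1089 FPKM in PCL-R, 1002 in PCL-B and 1101 in PCL-R-B, against 445.6 in PCL. Col1a1, a collagen chain, had 499.7 FPKM in PCL-R, 455.1 in PCL-B and 483.5 in PCL-R-B, against 226.7 in PCL. Spp1, which encodes the bone matrix protein osteopontin, was lower in those libraries, with 419.8 FPKM in PCL-R, 605.6 in PCL-B and 487.9 in PCL-R-B, against 1104 in PCL. Alpl, the alkaline phosphatase of osteoblasts, had 4 reads in PCL-R, 17 in PCL-B and 14 in PCL-R-B, against 29 in PCL. Lepr, Nt5e, Spp1, Alpl, Cd14, Cd68, Lyz2 and, above, Erap1 were chosen after their values were seen. Among 12 leukocyte markers the list summed to 21.6 FPKM in PCL-R, 17.8 in PCL-B and 14.7 in PCL-R-B, against 18.1 in PCL. Most of that sum came from Cd14, with 341 reads in PCL-R, 286 in PCL-B and 206 in PCL-R-B, against 292 in PCL, from Cd68 (81 to 123 reads) and from Lyz2 (31 to 78 reads). The pan-leukocyte gene Ptprc had no more than 1 read, and Adgre1 and Tyrobp had 0, in every library. Among 6 markers of plasmacytoid dendritic cells, the main interferon producers of blood, the list summed to 3.76 FPKM in PCL-R, 4.42 in PCL-B and 4.51 in PCL-R-B, against 5.60 in PCL. Tcf4, a transcription factor that many cell types express, made up most of it, with 3.46 FPKM in PCL-R, 4.16 in PCL-B and 4.40 in PCL-R-B, against 4.78 in PCL. The other 5 had at most 8 reads in any library, with Siglech and Klk1 at 0 in all. The 10 lymphocyte markers had 3 reads in PCL-R, 8 in PCL-B and 0 in PCL-R-B, against 2 in PCL, and the 6 blood-forming and erythroid markers at most 1 read a library. The 6 endothelial markers summed to 1.61 FPKM in PCL-R, 0.992 in PCL-B and 1.61 in PCL-R-B, against 0.316 in PCL. Outside PCL most of that sum came from Tek, with 110 reads in PCL-R, 62 in PCL-B and 90 in PCL-R-B, against 7 in PCL. Vwf had 22 reads in PCL-R, 25 in PCL-B and 32 in PCL-R-B, against 11 in PCL. Pecam1 had 11, 14 and 22 reads in the same order, against 6 in PCL. Emcn went the other way, with 3, 2 and 3 reads, against 8 in PCL. Cdh5 had at most 2 reads and Kdr at most 1 in any library. The part of these levels, of the mitochondrial share and of depth in the ratios above was not tested.

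Members with and without the response element core in their promoter window had ratios in overlapping ranges. In PCL-B over PCL the 13 members with a match had a median ratio of 2.24, and the 9 tested members with a window but no match had 2.66. The ratios ran from 1.15 for Eif2ak2 to 4.65 for Ifit3 with a match, and from 1.36 for Irf9 to 5.05 for Oasl1 without one. In PCL-R-B over PCL-B the medians were 0.902 with a match and 0.822 without. Parp9, Zbp1, Dhx58, Rtp4, Usp18, Oas2 and Parp14 were not searched.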

How the data were processed

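The authors deposited a table of raw read counts and FPKM values per gene for 4 libraries, per the file headers. The submitters' processing notes name mm10 as the build. No source used here names an aligner, a counting program or an annotation release. The deposited FPKM values follow from the count, the deposited gene length and a library total that lies 197 to 233 reads above the counted reads. A second table, of genes chosen for mitochondria, was not used, and its 8 columns of per-library values stand for no sample here. Counts were scaled with TMM factors (edgeR 4.0.16, R 4.3.3) and compared as ratios between single libraries, with a mean count of at least 10, a call at 1.5 and a floor of 3 reads. No p-value was computed. Alternatives were total-count scaling, DESeq2 1.42.0 size factors, no filter, a mean count of at least 50, FPKM with a pseudocount of 0.1, and a call at 2. Gene identities and overlaps came from GENCODE M21, where 21893 of 21935 identifiers matched, and promoters from RefSeq GRCm38.p6. Of the 30 listed genes compared with GENCODE M21, 11 have exons that overlap those of another gene. The script for ratios was tested on simulated counts. Every tested member is named. From each pathway list, the 2 genes with the highest mean FPKM and up to 2 called genes each way with the largest ratio in PCL-R-B over PCL are named. Members and lists were chosen with earlier results of these data known.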

Additional observations from a re-analysis of the deposited data

Results flagged for a closer look

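The listed genes differed in direction between the 2 comparisons that set a name with R over the same name without it. The median log2 ratio of the 29 members was 0.56 in PCL-R over PCL and -0.25 in PCL-R-B over PCL-B. These comparisons share no library, each rests on 1 library a side, and the difference between them was not tested. The directions of single members in these comparisons follow from the library order given above.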

How the results depend on the processing

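No paired analysis was possible because each name has 1 library, so no library could be left out either. With a call at a ratio of 2 in place of 1.5, members called in PCL-R over PCL numbered 4 higher and 0 lower, those in PCL-R-B over PCL-B 1 lower, and those in PCL-R-B over PCL-R 2 higher and 0 lower. The counts of called members in PCL-B over PCL and in PCL-R-B over PCL stayed within 1.5 times at that call. Total-count scaling, DESeq2 size factors, no filter, a mean count of at least 50 and FPKM left every count of called members within 1.5 times, and no called ratio of a member changed direction. Uncalled ratios near 1 did so for 3 members, in 7 values. Stat2 in PCL-R over PCL had a log2 ratio of 0.03 as reported and -0.03 on total counts and FPKM, and Parp9 had 0.01 as reported, -0.05 on both and -0.01 without a filter. Oas1a in PCL-R-B over PCL-B moved between 0.00 and -0.01 with the filter. In an alternative added after the data were seen, members lowest in PCL numbered 23 to 25, those in the full order 18 to 21, those above 1 and then below 1 with R 21 to 24, and those above 1 in both with B 26. Under total-count scaling and on FPKM, Irf7, Zbp1 and Ifi35 lost their calls in PCL-R over PCL, and Ifit1 and Parp14 gained calls in PCL-R-B over PCL-R. Calls of single members changed for 5 values under total-count scaling, 5 under FPKM, 1 without a filter and 1 at a mean count of at least 50. Over all genes, the called share in PCL-R-B over PCL-B was 6.05% higher and 6.60% lower without a filter, and 1.18% and 1.02% at a mean count of at least 50. The lower share in PCL-B over PCL was 3.32% at that minimum, and in PCL-R-B over PCL-R it was 7.08% without a filter, 2.52% at that minimum and 2.80% on FPKM. With a call at 2, the higher and lower shares were 4.47% and 3.30% in PCL-R over PCL, 3.54% and 1.41% in PCL-B over PCL, 3.62% and 1.71% in PCL-R-B over PCL, 0.888% and 0.995% in PCL-R-B over PCL-B, and 2.09% and 1.09% in PCL-R-B over PCL-R. Depth limits Oasl1, Rsad2, Zbp1, Cxcl9 and the interferon genes, which have few reads.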
